A study of Mus musculus with 15 samples.

Results

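The adipocyte marker genes Cfd, Car3, Adipoq, Cidea, Cidec, Fabp4, Retn and Ucp1 were followed heart by heart through a time course of CELF2 induction in mouse ventricle. They were chosen by name as a measure of the adipose content of the dissected tissue. All 8 were found among the 16199 genes of the expression table, and 5 of them passed a minimum mean of 1 RPKM (reads per kilobase of coding sequence and of mapped sequencing depth, a level that takes gene length into account).

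White adipocytes store triglyceride in a single large lipid droplet and secrete hormones, while brown adipocytes hold many small droplets and burn fat for heat. Small fat depots lie on the outer surface of the heart, so a dissected ventricle can carry some adipose tissue. Several adipocyte markers are not particular to fat. Fabp4, a fatty acid carrier, is abundant in capillary endothelium, and Cidea, a lipid droplet protein of brown fat, is also made in other tissues that handle much fat.

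Ventricles of 15 FVB mice aged 14 to 16 weeks were profiled by RNA-seq of poly(A)+ RNA, with 3 mice in each of 5 groups. Induced mice carried MHCrtTA, in which a cardiac myosin promoter drives the reverse tetracycline transactivator in cardiomyocytes, and TRECUGBP2, a tetracycline-responsive human CELF2 transgene, and were taken after 12 h, 24 h, 72 h or 7 d of food with 2 g/kg doxycycline per the labels, although another record of the study gives a higher dose for all 15 animals. Control mice carried MHCrtTA alone and received the same food for 72 h, so doxycycline duration and CELF2 cannot be told apart except at 72 h. Atria and a small part of the apex had been cut away and blood washed out before freezing. The labels of induced mice also name a Celf1 cassette, which is at odds with the genotype given beside it. Every time point was compared with the same 3 control hearts. Hearts are numbered here within their group in the order of deposition.

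Celf2 itself lay between 84.48 and 358.96 RPKM in the 12 induced hearts against 8.54 to 11.27 RPKM in controls. A code in the sample titles, whose meaning the sources do not state, split the hearts into 3 sets, called runs A, B and C here. Run A held 6 hearts (control 1, 12 h 1, 24 h 1, 72 h 1 and 2, and 7 d 1), run B comprised the 6 further hearts of control, 12 h and 24 h, and run C comprised 72 h heart 3 with 7 d hearts 2 and 3. Depth is unknown from these values, and between 1463 and 1977 genes were listed at 0 per heart. Y-linked mRNA (Ddx3y, Eif2s3y, Uty and Kdm5d) was absent from 6 hearts, namely control 1 and 2, all 3 at 12 h and 24 h heart 1, and present in the other 9. Control and 12 h hearts were thus mostly without it and all 72 h and 7 d hearts had it. Atrial myocyte markers (Myl7, Myl4, Sln and Nppa) summed to between 57.46 and 346.87 RPKM in 14 hearts and to 533.28 RPKM in 12 h heart 2.

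The 8 genes spanned a wide range of levels. Averaged over 15 hearts, Fabp4 had 878 RPKM, Cidea 24.9 RPKM, Car3 5.06 RPKM, Cfd 3.57 RPKM, Adipoq 1.32 RPKM, Cidec 0.909 RPKM, Retn 0.64 RPKM and Ucp1 0.044 RPKM. Fabp4 ranked between the 99.6th and the 99.7th percentile of all genes in every heart, whereas Adipoq ranked between the 30.4th and the 48.5th percentile. The order Fabp4, Cidea, Car3 held in all 15 hearts, and Cfd exceeded Adipoq in all 15. Neighbours with overlapping levels were Car3 and Cfd, where Car3 was higher in 13 of 15 hearts, Adipoq and Cidec (12 of 15), Cidec and Retn (12 of 15) and Retn and Ucp1 (14 of 15). No 36-base stretch of the annotated coding sequence of any of the 8 genes occurred in transcripts of another protein-coding gene. Noncoding transcripts and opposite strands were not searched.

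**Figure D1:**
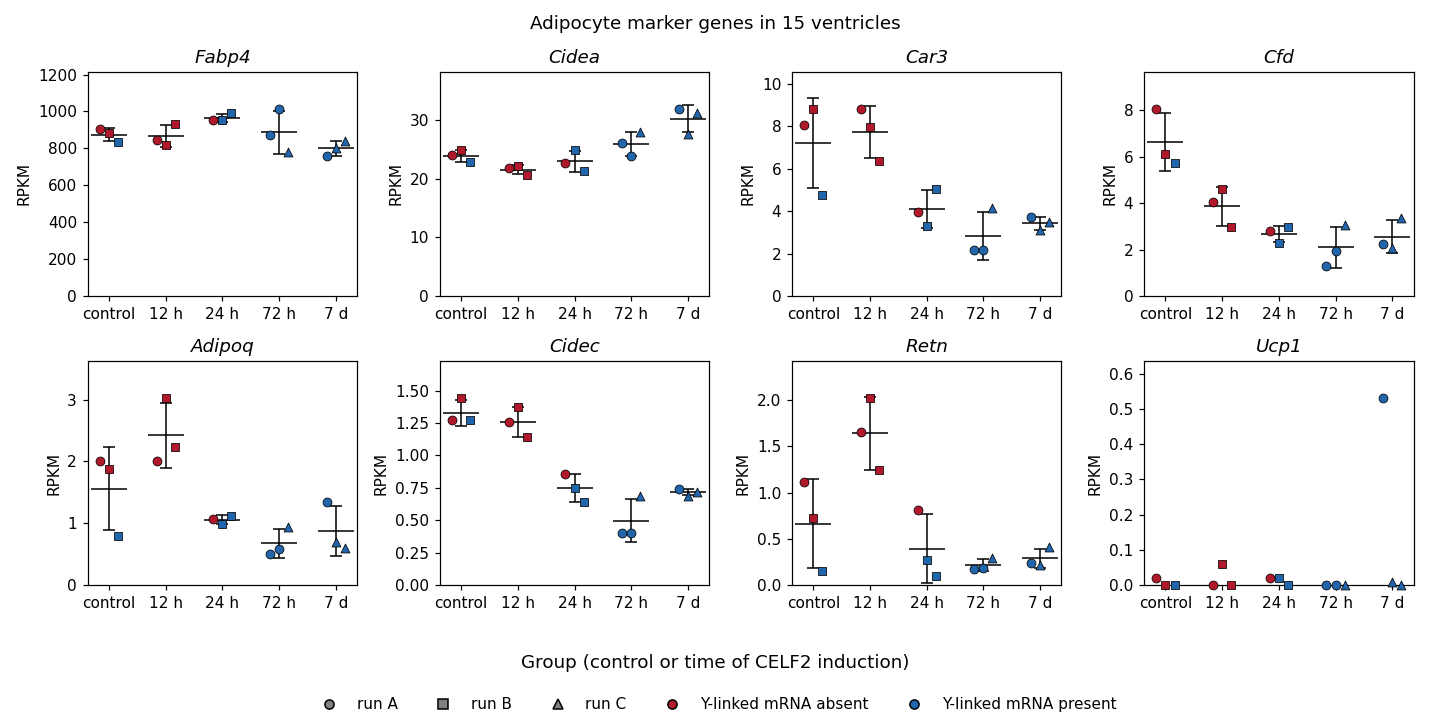
RPKM (vertical axis, from 0) of the 8 adipocyte marker genes in 15 ventricles by group (horizontal axis), where each point is 1 heart (circles, squares and triangles for runs A, B and C; red and blue for Y-linked mRNA absent and present), and each bar gives a mean ± SD over 3 hearts, left out for Ucp1. In the panels Car3, Cidec, Adipoq and Retn lie lower in all hearts at 72 h and 7 d than at 12 h. Cfd has lower means there, with overlapping hearts. Cidea lies highest at 7 d, and Fabp4 stays between 757.86 and 1012.06 RPKM.

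On the scale of log2(RPKM + 0.5), limma was fitted to the 10557 genes that averaged 1 RPKM or more, and a gene was called at a Benjamini-Hochberg adjusted p under 0.05. The pseudocount of 0.5 makes the log2 change of a gene near 1 RPKM smaller than its change in RPKM. Of the 5 marker genes tested, 4 (Cfd, Car3, Adipoq and Cidea) differed among the 5 groups, against 11.7% of all tested genes. Against control, 0 of 5 were called at 12 h (0.388% of all genes) and 0 of 5 at 24 h (0.0947%), although 2 had an unadjusted limma p under 0.05 at each time, Cfd and Adipoq at 12 h and Cfd and Car3 at 24 h. At 72 h, 2 of 5 were called (0.597% of all genes) and both were lower (0.36% of all genes). At 7 d, 3 of 5 were called (9.99% of all genes), of which 2 were lower (4.16%) and 1 was higher (5.83%). For all tested genes the median log2 changes at 12 h, 24 h, 72 h and 7 d were -0.10, -0.10, -0.08 and 0.03, and for the 5 markers they were -0.01, -0.34, -0.77 and -0.56. In a bulk sample, fewer cells of a type and less RNA per cell cannot be told apart.

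**Figure D2:**
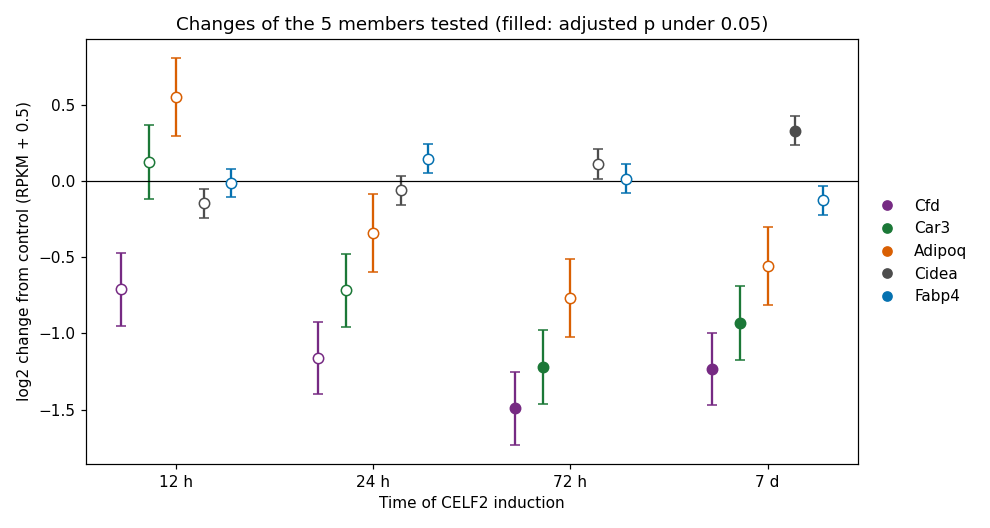
Log2 change from control in log2(RPKM + 0.5) (vertical axis) of the 5 markers tested, by time of induction (horizontal axis, 12 h to 7 d), where points are limma estimates from 3 against 3 hearts, bars are standard errors, and filled points have an adjusted p under 0.05. Cfd lies below 0 at all 4 times, Car3 and Adipoq below 0 from 24 h on, and Fabp4 within 0.15 of 0.

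Cfd encodes complement factor D (adipsin), the serine protease that starts the alternative complement pathway and a major product of fat cells (mm9 chr10:79353598-79355401, plus strand). Cfd stood at 8.05, 6.12 and 5.73 RPKM in the control hearts, 4.05, 4.6 and 2.96 RPKM at 12 h, 2.78, 2.27 and 2.96 RPKM at 24 h, 1.31, 1.96 and 3.06 RPKM at 72 h, and 2.22, 2.07 and 3.38 RPKM at 7 d. All 12 induced hearts were below all 3 control hearts. Of all tested genes, 13.2%, 14.5%, 10.8% and 13.4% were lower than control without overlap at 12 h, 24 h, 72 h and 7 d, each taken alone. The share lower at all 4 times was not counted. Cfd fell by 1.49 on the log2 scale at 72 h (standard error 0.24, adjusted p = 0.0132) and by 1.23 at 7 d (adjusted p = 0.00459). The log2 changes at 12 h (-0.71, adjusted p = 0.25) and at 24 h (-1.16, adjusted p = 0.102) did not pass the test. Nor did Cfd pass against 12 h, at 72 h (-0.78, adjusted p = 0.147) or 7 d (-0.52, adjusted p = 0.153).

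The 72 h call of Cfd ended without control heart 1 (log2 change -1.35, adjusted p = 0.077), control heart 2 (-1.54, adjusted p = 0.0673), 72 h heart 1 (-1.26, adjusted p = 0.092) or 72 h heart 2 (-1.48, adjusted p = 0.0647), and in a fit of both groups alone (adjusted p = 0.0969), whereas the 7 d call held without any single heart. With the run as a covariate Cfd passed at all 4 times, with log2 changes of -0.71, -1.16, -1.79 and -1.69. With Y-linked mRNA as a covariate it passed at none (72 h log2 change -1.33, adjusted p = 0.217; 7 d log2 change -1.07, adjusted p = 0.0685). Within run A, which holds 1 control heart, the log2 differences from control at 12 h, 24 h, 72 h and 7 d were -0.91, -1.38, -2.02 and -1.65. Run B, with 2 control hearts, gave -0.61 and -1.05 for 12 h and 24 h. The values also separated within both classes of Y-linked mRNA. Among hearts without it, the 4 induced hearts (2.78 to 4.6 RPKM) were below the 2 control hearts (6.12 and 8.05 RPKM). Among hearts with it, the 8 induced hearts (1.31 to 3.38 RPKM) were below the only control heart (5.73 RPKM), with no test possible against a single heart. How many of all tested genes separate in this way within the classes was not counted. With so few control hearts, no conclusion is drawn from it.

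Adipoq encodes adiponectin, a hormone made almost only by adipocytes (mm9 chr16:23146609-23158101, plus strand). It stood at 2.01, 1.88 and 0.79 RPKM in the control hearts, 2.01, 3.02 and 2.23 RPKM at 12 h, 1.07, 0.99 and 1.12 RPKM at 24 h, 0.5, 0.58 and 0.94 RPKM at 72 h, and 1.34, 0.69 and 0.6 RPKM at 7 d. Control heart 3 was far below the other 2 control hearts and in the range of the 72 h and 7 d hearts, so the control hearts overlapped those at 24 h, 72 h and 7 d. Against control Adipoq did not pass at any time (log2 change 0.55 at 12 h, adjusted p = 0.407, and -0.77 at 72 h, adjusted p = 0.208). Hearts at 12 h were above those at 72 h and 7 d without overlap (4.88% and 8.07% of all tested genes were lower in this way). Adipoq was lower at 72 h than at 12 h by 1.32 on the log2 scale (standard error 0.26, adjusted p = 0.0245), where 2 of the 5 markers (Adipoq and Car3) were called, both lower, against 1.03% of all genes called and 0.464% called lower. It was lower at 7 d than at 12 h by 1.11 (adjusted p = 0.0106), where 2 of 5 (again Adipoq and Car3) were lower against 3.88% of all genes, and Cidea was higher against 11.8% (15.6% called in either direction).

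Neither Adipoq call was kept once Y-linked mRNA, absent at 12 h and present at 72 h and 7 d, entered the fit, and within these pairs of groups it and time cannot be told apart. With it as a covariate the 72 h value was -0.85 (adjusted p = 0.484) and the 7 d value -0.63 (adjusted p = 0.344). The 72 h call ended without 12 h heart 2 (log2 change -1.18, adjusted p = 0.136), 72 h heart 1 (-1.21, adjusted p = 0.118) or 72 h heart 2 (-1.27, adjusted p = 0.108). The 7 d call ended with the run as a covariate (-1.09, adjusted p = 0.059) and without 12 h heart 2 (-0.97, adjusted p = 0.0514), 7 d heart 2 (-1.02, adjusted p = 0.0506) or 7 d heart 3 (-0.97, adjusted p = 0.0502). Among the 9 hearts with Y-linked mRNA, control heart 3 (0.79 RPKM) lay in the middle, with 4 induced hearts below it and 4 above. Of the genes through which adiponectin acts, Appl2, an adaptor of its receptors, was lower than control at 72 h (log2 change -0.56, adjusted p = 0.0363) and 7 d (-0.41, adjusted p = 0.0236). The other 4 tested (Adipor1, Adipor2, Cdh13 and Appl1) were not called against control. Of all tested genes, 0.36% and 4.16% were called lower than control at 72 h and 7 d.

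Retn encodes resistin, a hormone of white adipocytes in the mouse (mm9 chr8:3655770-3660110, plus strand). It was below the minimum mean of the test. Retn stood at 1.11, 0.73 and 0.15 RPKM in the control hearts, 1.66, 2.02 and 1.24 RPKM at 12 h, 0.81, 0.27 and 0.1 RPKM at 24 h, 0.17, 0.18 and 0.29 RPKM at 72 h, and 0.24, 0.22 and 0.41 RPKM at 7 d. The 3 hearts at 12 h were above all other hearts (exact two-sided permutation test against control, p = 0.1, the smallest that 3 against 3 hearts allow), and 3.31% of the tested genes were higher than control without overlap at 12 h. The share above all other hearts was not counted. In a fit of all 16199 genes with no minimum, its log2 change from 12 h was -1.57 at 72 h (adjusted p = 0.0403, where 0.494% of all genes were called lower) and -1.43 at 7 d (adjusted p = 0.0124, 3.08% called lower), and no comparison with control passed. Its values also split by Y-linked mRNA. The 6 hearts without Y-linked mRNA lay between 0.73 and 2.02 RPKM and the 9 hearts with it between 0.1 and 0.41 RPKM, with no overlap. Of the 10557 tested genes, 14 (0.133%) separated the hearts in this direction. The resistin-like gene Retnla, known from alternatively activated macrophages, was lower at 7 d than at 12 h (log2 change -1.13, adjusted p = 0.0383, where 3.88% of all tested genes were called lower). Its hearts overlapped, with 12.47, 14.88 and 3.93 RPKM at 12 h and 4.25, 3.98 and 3.47 RPKM at 7 d. Time and Y-linked mRNA cannot be told apart here either.

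Car3 encodes carbonic anhydrase 3, an enzyme of adipocytes and slow skeletal muscle (mm9 chr3:14863538-14872351, plus strand). It stood at 8.05, 8.79 and 4.78 RPKM in the control hearts, 8.8, 7.98 and 6.38 RPKM at 12 h, 3.98, 3.28 and 5.06 RPKM at 24 h, 2.16, 2.18 and 4.13 RPKM at 72 h, and 3.71, 3.09 and 3.49 RPKM at 7 d. Hearts at 72 h and 7 d lay below all control and 12 h hearts, while those at 24 h overlapped control heart 3. Without overlap, 10.8% and 13.4% of all tested genes were lower than control at 72 h and 7 d, and 4.88% and 8.07% were lower than at 12 h. Car3 fell by 1.22 on the log2 scale at 72 h (standard error 0.24, adjusted p = 0.0414) and by 0.93 at 7 d (adjusted p = 0.0252) against control, where 0.36% and 4.16% of all tested genes were called lower. Against 12 h it fell by 1.35 at 72 h (adjusted p = 0.0173) and by 1.06 at 7 d (adjusted p = 0.0101), where 0.464% and 3.88% were called lower.

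The 72 h call of Car3 against control was close to the threshold, and it ended without any 1 of 11 of the 15 hearts. These were control heart 1 (log2 change -1.13, adjusted p = 0.14), control heart 2 (-1.07, adjusted p = 0.206), 72 h heart 1 (-1.09, adjusted p = 0.223), 72 h heart 2 (-1.09, adjusted p = 0.203), and, with the value itself unmoved, 12 h heart 2 and all 24 h and 7 d hearts (adjusted p from 0.0523 to 0.0685). It also ended in the fit of all 16199 genes (adjusted p = 0.067) and of both groups alone (adjusted p = 0.174). The 7 d call ended without control heart 1 (adjusted p = 0.0945), control heart 2 (adjusted p = 0.12), 7 d heart 2 (adjusted p = 0.0996) or 7 d heart 3 (adjusted p = 0.0652). Against 12 h, the 72 h call ended without 12 h heart 2, 72 h heart 1 or 72 h heart 2 (adjusted p = 0.0868, 0.0903 and 0.0929) while the 7 d call held without any single heart. With the run as a covariate both calls against control held (log2 change -1.45, adjusted p = 0.0171, and -1.27, adjusted p = 0.0176), and with Y-linked mRNA as a covariate neither did (-0.95, adjusted p = 0.302, and -0.65, adjusted p = 0.245), nor did those against 12 h (-0.94, adjusted p = 0.467, and -0.65, adjusted p = 0.319). None of 6 other carbonic anhydrase genes tested was called against control at 72 h or 7 d (0.597% and 9.99% of all tested genes were). Their median log2 change was -0.18 and -0.07. Slow skeletal muscle is the other tissue named for Car3. Of 5 tested genes on a list of fast and slow skeletal muscle, 0 were called against control. The list summed to between 76.39 and 119.92 RPKM over the 15 hearts. Most of this came from the fast muscle genes Myh1 and Myh4, so the sum says little about slow muscle. Tnnt1, a slow muscle gene, stood at 7.65, 8.52 and 9.58 RPKM in the control hearts. At 7 d it stood at 4.8, 6.95 and 6.46 RPKM, without overlap (13.4% of all tested genes were lower in this way). At the other times it overlapped control. The part of slow muscle in the level of Car3 was not tested.

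Cidec encodes the lipid droplet protein FSP27, which joins droplets into the large one of white adipocytes (mm9 chr6:113374628-113385754, minus strand). It had a mean of 0.909 RPKM, just under the minimum. Cidec stood at 1.27, 1.44 and 1.27 RPKM in the control hearts, 1.26, 1.37 and 1.14 RPKM at 12 h, 0.86, 0.75 and 0.64 RPKM at 24 h, 0.4, 0.4 and 0.69 RPKM at 72 h, and 0.74, 0.69 and 0.72 RPKM at 7 d. All 9 hearts at 24 h or later were below all 6 control and 12 h hearts. Of all tested genes, 14.5%, 10.8% and 13.4% were lower than control without overlap at 24 h, 72 h and 7 d, and 4.88% and 8.07% lower than 12 h at 72 h and 7 d. These shares are for single pairs of groups, and the share for 9 against 6 hearts was not counted. The 7 d hearts lay close together, while 72 h heart 3 stood above the other 2 hearts of its group. Exact two-sided permutation tests against control gave p = 0.1, the smallest possible, at 24 h, 72 h and 7 d, and p = 0.4 at 12 h. In the fit of all 16199 genes the log2 change was -0.89 at 72 h (adjusted p = 0.00901, where 0.179% of all genes were called lower) and -0.59 at 7 d (adjusted p = 0.00852, 2.91% called lower), while at 24 h it was -0.55 (adjusted p = 0.157). Within run A the differences from control were -0.01, -0.38, -0.98 and -0.51 on the log2 scale at 12 h, 24 h, 72 h and 7 d. Among hearts with Y-linked mRNA, all 8 induced hearts (0.4 to 0.75 RPKM) were below the only control heart (1.27 RPKM), with no test possible and no count of other genes that do so. Among hearts without it, 3 of 4 induced hearts (0.86 to 1.37 RPKM) were below both control hearts (1.27 and 1.44 RPKM) and the range of induced hearts overlapped theirs.

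Cidea, a paralog of Cidec, was higher at 7 d. Its exons (mm9 chr18:67503218-67527448, plus strand) overlap those of the noncoding RNA B430212C06Rik on the minus strand, and whether reads were counted by strand is not stated, so reads of the 2 genes may be mixed. It stood at 24.07, 24.92 and 22.86 RPKM in the control hearts, 21.87, 22.14 and 20.71 RPKM at 12 h, 22.75, 24.84 and 21.24 RPKM at 24 h, 26.04, 23.86 and 27.91 RPKM at 72 h, and 31.86, 27.66 and 31.27 RPKM at 7 d. All 7 d hearts were above all control, 12 h and 24 h hearts (18.3% of all tested genes were higher without overlap at 7 d than in control, and 22.3% than at 12 h). Cidea rose by 0.33 on the log2 scale at 7 d against control (standard error 0.10, adjusted p = 0.042) and by 0.48 against 12 h (adjusted p = 0.00456). The call against control was lost without any single control or 7 d heart, without 12 h heart 2, 24 h heart 1 or 72 h heart 1 (adjusted p from 0.0514 to 0.136), and with run (0.31, adjusted p = 0.106) or Y-linked mRNA (0.36, adjusted p = 0.136) as a covariate. The call against 12 h held without any single heart and with the run as a covariate, and was lost with Y-linked mRNA (0.52, adjusted p = 0.0848). Of 6 other lipid droplet genes tested, Plin2, a coat protein of droplets in most tissues, fell by 0.72 at 7 d (adjusted p = 0.00115; 4.16% of all tested genes were lower), and the other 5 were not called against control.

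Fabp4, the most abundant of the markers, did not follow the others. Its gene is at mm9 chr3:10204347-10208576, minus strand. Fabp4 stood at 904.05, 881 and 834.13 RPKM in the control hearts, 845.05, 818.76 and 932.66 RPKM at 12 h, 951.77, 954.5 and 990.15 RPKM at 24 h, 869.75, 1012.06 and 779.8 RPKM at 72 h, and 757.86, 803.39 and 838.61 RPKM at 7 d. Hearts at 24 h were above the control hearts (2.77% of all tested genes were), and at the other times the groups overlapped. No log2 change of Fabp4 passed (0.15 at 24 h with standard error 0.09, adjusted p = 0.662, and -0.13 at 7 d, adjusted p = 0.462). Endothelial markers summed over 12 genes to between 905.95 and 1150.88 RPKM in the 15 hearts, with the highest median at 24 h, and 1 of the 12 (Flt1, log2 change -0.36) was called at 7 d, where 4.16% of all tested genes were lower, and 0 at 12 h, 24 h and 72 h. Their part in the level of Fabp4 was not tested. Fabp3, the fatty acid binding protein of cardiac muscle, ran from 3783.63 to 8333.51 RPKM.

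Ucp1, the uncoupling protein by which brown fat makes heat (mm9 chr8:85814247-85822355, plus strand), was near 0 in nearly every heart. It was listed at 0.02, 0 and 0 RPKM in the control hearts, 0, 0.06 and 0 RPKM at 12 h, 0.02, 0.02 and 0 RPKM at 24 h, 0 in all 3 at 72 h, and 0.53, 0.01 and 0 RPKM at 7 d. A single library, 7 d heart 1, stood apart. The same heart had the highest Cidea level (31.86 RPKM) and the highest Adipoq level (1.34 RPKM) of the hearts with Y-linked mRNA. Of the genes listed for brown and beige adipocytes, the highest values were 0.03 RPKM for Zic1, 0.02 RPKM for Lhx8, 0.03 RPKM for Otop1, 0.06 RPKM for Elovl3, 0.14 RPKM for Tmem26 and 0.34 RPKM for Dio2. The transcription factor genes Prdm16 and Ebf2, which take part in brown fat formation and are also used by other cells, were present in every heart, at 1.27 to 2.31 and 1.34 to 1.98 RPKM, and neither was called in any comparison. In 7 d heart 1, Zic1 and Otop1 were at 0.02 RPKM, below their highest values, and Elovl3 was at 0.06 RPKM, its highest value. Brown fat genes shared with heart muscle were abundant (Fabp3, Cox7a1 and Cox8b), and of 7 tested genes of this list 1 was higher at 7 d (Gyk, a glycerol kinase, log2 change 0.56) and 1 lower (Cox7a1, a subunit of cytochrome oxidase, -0.35), where 5.83% of all tested genes were higher and 4.16% lower. In 7 d heart 1, Gyk (11.51 RPKM) was at its highest of all 15 hearts. Ebf2 (1.34 RPKM), Cox7a1 (832.92 RPKM), Cox8b (594.87 RPKM) and Fabp4 (757.86 RPKM) were at their lowest there, so these genes did not move one way. Whether this heart held brown fat was not tested. Of the other uncoupling proteins, Ucp3 fell by 1.31 at 7 d (adjusted p = 0.0122), and it is expressed in muscle.

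Further genes of white adipocytes were read from a list that holds no member of the 8. Of 15 tested, 0 were called at 12 h, 24 h or 72 h against control, and at 7 d 4 were lower and 0 higher (4.16% and 5.83% of all tested genes), with a median log2 change of -0.35. The 4 were Fasn, the fatty acid synthase (-0.93, adjusted p = 0.0115), Sncg, a synuclein of adipocytes and neurons (-0.56, adjusted p = 0.0132), Dgat2, which completes triglyceride synthesis (-0.53, adjusted p = 0.0451), and Rbp4, a retinol carrier (-0.65, adjusted p = 0.0495). Against 12 h, Scd1, a fatty acid desaturase, was lower at 72 h (-1.29, adjusted p = 0.043) and 7 d (-1.06, adjusted p = 0.0202). It split by Y-linked mRNA without overlap, as 0.133% of all tested genes did in this direction. The 6 hearts without Y-linked mRNA had 7.89 to 18.17 RPKM of Scd1 and the 9 with it 4.21 to 6.43 RPKM. Time and Y-linked mRNA cannot be told apart in the comparisons with 12 h. At 7 d against 12 h, Lipe and Sncg were lower too, while Agpat2, Gpd1 and Thrsp were higher (log2 changes 0.57, 0.77 and 0.57), so the list did not move one way. Of all tested genes, 0.464% were called lower at 72 h than at 12 h. At 7 d against 12 h, 3.88% were called lower and 11.8% higher. The droplet coat gene Plin1, which is particular to adipocytes, stood at 0.73, 1.15 and 0.67 RPKM in the control hearts, 0.69, 1.69 and 1.02 RPKM at 12 h, 0.29, 0.41 and 0.55 RPKM at 24 h, 0.15, 0.29 and 0.6 RPKM at 72 h, and 0.42, 0.41 and 0.59 RPKM at 7 d, below the minimum of the test. Lep, the gene for leptin, did not exceed 0.15 RPKM in any heart. Highly expressed members of the list were Lpl, Dgat2 and Plin4, which heart muscle also uses, with means of 1032, 87.9 and 58.2 RPKM.

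Heart by heart, levels of Cfd, Car3, Adipoq and Cidec correlated over the 15 hearts, and r of all 6 pairs was lower over deviations from group means. Over the 15 hearts, Pearson correlations of log2(RPKM + 0.5) were computed for the 21 pairs of the 7 genes other than Ucp1, with permutation tests over 100000 resamples. Adjusted over the 21 pairs, 10 passed, of which 9 were among Cfd, Car3, Adipoq, Cidec and Retn. The tenth was the negative pair of Cidea and Fabp4 (r = -0.60, rho = -0.55, adjusted p = 0.0383), which did not pass by rank (adjusted p = 0.0818). Retn took part in 3 of the 9, and since its levels fell into separate sets of hearts its pairs are described within those sets only. Of the others, the strongest were Car3 with Cidec (r = 0.92, rho = 0.78, adjusted p = 0.000105) and Car3 with Adipoq (r = 0.89, rho = 0.85, adjusted p = 0.000105). Cfd had r = 0.86 (rho = 0.81, adjusted p = 0.00021) with Cidec and r = 0.83 (rho = 0.85, adjusted p = 0.000588) with Car3. With Adipoq it had r = 0.60 (rho = 0.57, adjusted p = 0.0383), which did not pass by rank (adjusted p = 0.0632). Adipoq with Cidec had r = 0.80 (rho = 0.73, adjusted p = 0.00175). Fabp4 had r between -0.20 and -0.07 with these 4 genes and Cidea between -0.47 and -0.29, and none of these pairs passed. As the groups differ in the same genes, r was also taken over deviations from the group means, where Car3 with Adipoq had 0.71, Cfd with Car3 0.69, Car3 with Cidec 0.58, Cfd with Cidec 0.57, Adipoq with Cidec 0.46 and Cfd with Adipoq 0.37. Only the pairs of Car3 with Adipoq and with Cfd (adjusted p = 0.0309 for both) passed over deviations, and the other 4 did not (adjusted p from 0.0835 to 0.223). All p-values over deviations given here are too small. The permutation test shuffled the 15 deviations freely over hearts although the group means had been taken out. A pass over deviations is therefore not firm. Within run A (6 hearts) these pairs had r of 0.97, 0.89, 0.98, 0.89, 0.97 and 0.86, and within run B (6 hearts) 0.79, 0.65, 0.74, 0.82, 0.53 and 0.16. Without the 2 hearts farthest from the median of the first-named gene, they had r of 0.89, 0.77, 0.89, 0.85, 0.77 and 0.50. Over deviations Cidec also had r = -0.71 with Fabp4 (adjusted p = 0.0309; -0.26 within run A and -0.86 within run B) and r = 0.65 with Cidea (adjusted p = 0.0397; -0.32 and 0.15), neither of which passed over the 15 hearts. Cidea with Fabp4 had -0.57 over deviations (adjusted p = 0.0835), -0.68 and -0.15 within runs A and B, and -0.47 without 2 hearts.

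**Figure D3:**
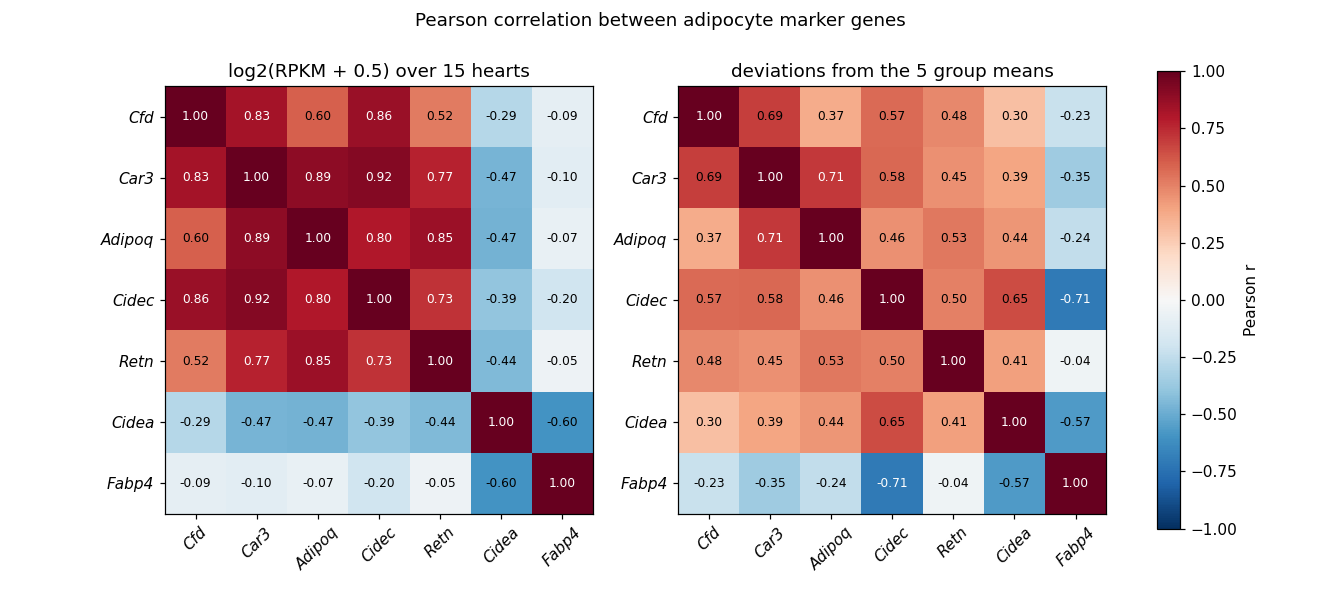
Pearson r between 7 adipocyte marker genes (rows and columns), over the log2(RPKM + 0.5) values of 15 hearts at left and over deviations from the 5 group means at right, with color from -1 (blue) to 1 (red). Cfd, Car3, Adipoq and Cidec have r of 0.60 to 0.92 with each other at left and 0.37 to 0.71 at right, and Cidea and Fabp4 have negative r with them at left.

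The classes of Y-linked mRNA were also taken apart. Adipoq with Retn had r = 0.75 (rho = 0.84) over the 6 hearts without Y-linked mRNA and r = -0.10 (rho = 0.03) over the 9 hearts with it, and Car3 with Retn 0.40 and -0.10. Car3 with Adipoq had r = 0.72 (rho = 0.03) over the 6 hearts and 0.67 (rho = 0.72) over the 9. Cfd with Cidec had r of 0.70 and 0.86, and Cfd with Car3 r of 0.69 and 0.79. In none of these classes did a pair pass an exact permutation test adjusted over 21 pairs.

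**Figure D4:**
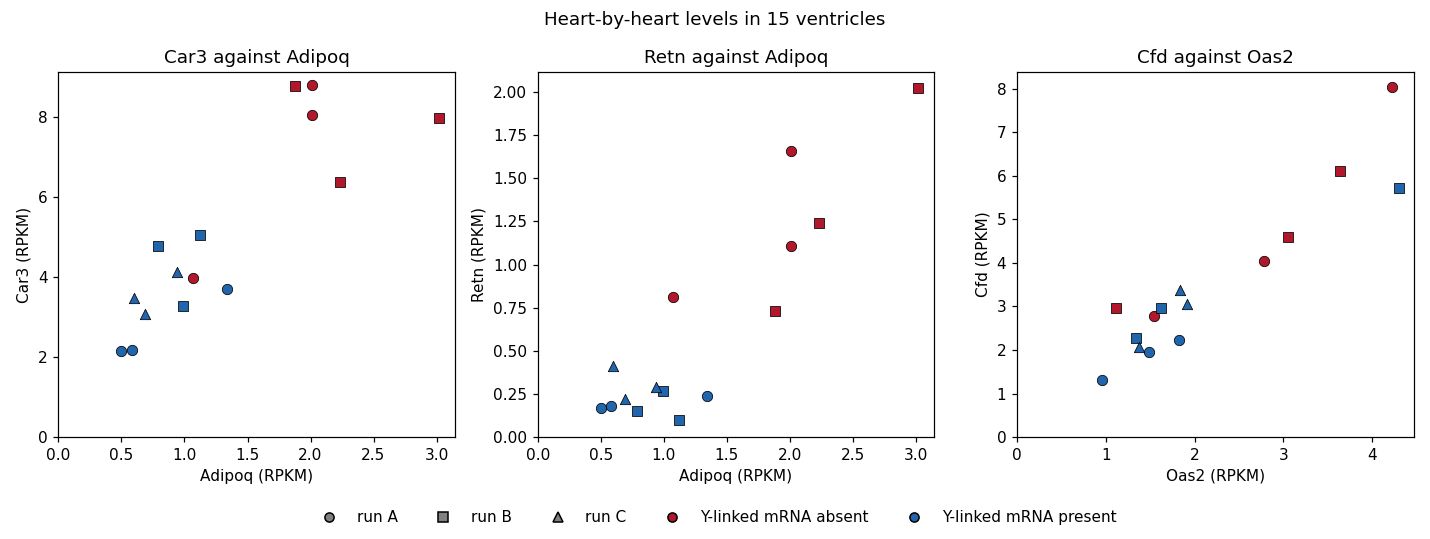
Levels in RPKM of Car3 against Adipoq, Retn against Adipoq and Cfd against Oas2 (vertical against horizontal axes, from 0), where each of 15 hearts is 1 point, its shape showing the run and its color the class of Y-linked mRNA. Retn separates the 6 hearts without from the 9 hearts with Y-linked mRNA, at or above 0.73 and at or below 0.41 RPKM, and the 3 control hearts have the highest levels of both Cfd and Oas2.

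Among the 10557 tested genes, the one whose levels over 15 hearts were most like those of Adipoq was Car3 (r = 0.89, rank 1 of 10556). The next 9 were Pthr1 (0.87), Smyd4 (0.86), Ptger4 (0.83), Scd1 (0.83), Pcdhgb7 (0.82), Lsp1 (0.80), Adck2 (0.79), Scd4 (0.79) and Scd3 (0.78). The 3 stearoyl-CoA desaturase genes among them are close relatives between which reads may be split. Cfd ranked 177th, Fabp4 5040th and Cidea 9524th in likeness to Adipoq. Car3 and Scd1 were the only 2 of the 10 on the adipocyte lists, and Scd1 separated the classes of Y-linked mRNA, as given above. Cidec, Retn and Plin1 were below the minimum mean and could not enter this ranking or the next. Cidec had r = 0.80 with Adipoq, within the range of the 10.

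Taking Cfd as the reference gave another set with 0 genes of the adipocyte lists. Its 10 nearest genes were Oas2 (r = 0.92), Isgf3g (0.90), LOC667370 (0.90), Oasl2 (0.89), Rtp4 (0.89), Clp1 (0.89), Ifit1 (0.88), Ifit3 (0.88), Irf7 (0.88) and Stat2 (0.87). At least Oas2, Oasl2, Ifit1, Ifit3, Irf7 and Stat2 of these belong to the interferon response. Oas2, an antiviral synthetase, stood at 4.22, 3.64 and 4.3 RPKM in the control hearts, 2.78, 3.05 and 1.11 RPKM at 12 h, 1.54, 1.34 and 1.62 RPKM at 24 h, 0.96, 1.49 and 1.92 RPKM at 72 h, and 1.83, 1.37 and 1.84 RPKM at 7 d. Like Cfd, it was lower in all 12 induced hearts than in all 3 control hearts, and the share of all tested genes that were was not counted. Car3 ranked 31st and Adipoq 564th in likeness to Cfd. These likenesses are descriptions over 15 hearts that share libraries and group differences.

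Ventricular myocyte markers summed to between 41008.69 and 49811.13 RPKM in the 12 hearts of control, 12 h, 24 h and 72 h, and to less in all 3 hearts at 7 d (39699.39 to 40998.87 RPKM). Of the 8 markers, 1 was higher at 7 d than in control (Actc1, cardiac actin, log2 change 0.63) and 2 were lower (Myh6, the myosin heavy chain whose promoter drives the transactivator, -0.36, and Pln, phospholamban, -0.41), and 0 were called at 12 h, 24 h or 72 h. Of all tested genes, 0.388%, 0.0947% and 0.597% were called against control at 12 h, 24 h and 72 h. At 7 d the share was 9.99%, with 5.83% higher and 4.16% lower. Against 12 h, 1 myocyte marker was higher and 4 were lower at 7 d, where 11.8% and 3.88% of all tested genes were. The part of these changes in the levels of the adipocyte genes at 7 d was not tested. None of 9 tested macrophage markers passed at any time, with summed levels over 11 genes of 91.23 to 171.66 RPKM, and the 1 epicardial and mesothelial marker tested did not pass, with summed levels of 2.15 to 5.05 RPKM over 8 genes. Neutrophil markers summed to at most 2.84 RPKM. The 12 h heart 2, which had the highest Adipoq (3.02 RPKM), Retn (2.02 RPKM) and Plin1 (1.69 RPKM) of all hearts, also had the highest sum of atrial markers (533.28 RPKM) and of macrophage and neutrophil markers. Its part in the level of the adipocyte genes was not tested beyond leaving it out. Without it, Retn still had its highest values in the other 12 h hearts (1.66 and 1.24 RPKM), and Adipoq had 2.23 and 2.01 RPKM there against 2.01 RPKM in control heart 1.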

How the data were processed

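Poly(A)+ RNA of 15 ventricles was sequenced as strand-specific read pairs. The authors mapped reads to mm9 (the submitters' processing notes name Bowtie and TopHat, versions not given) and deposited RPKM values with 2 decimals per gene and heart, relative to uniquely mapping nonribosomal, nonmitochondrial reads. Read counts were not used here and could not be recovered from low values, so precision is the spread between hearts. Replicates are separate animals. The 8 members, the gene lists and the tests were chosen with earlier results of these data known.

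Changes were tested with limma 3.58.1 (R 4.3.3), with a mean-variance trend, on log2(RPKM + 0.5) of 10557 genes in 1 fit of 5 groups, two-sided, with Benjamini-Hochberg adjustment and a threshold of 0.05. Members under 1 RPKM got exact permutation tests, and correlations used Python 3.11.15 and scipy 1.17.1. The fit was tested on simulated data. Named genes are the 8 members, up to 4 called and up to 3 abundant genes of each list, and the 10 genes most like Adipoq; Plin1, Lep, Zic1, Lhx8, Otop1, Elovl3, Tmem26, Dio2, Prdm16 and Ebf2, the genes most like Cfd and the adiponectin signalling genes not called were named after their values were seen. Positions are from the mm9 annotation. Alternatives were pseudocounts, minimum levels, scalings, covariates, library weights, fits of single pairs of groups and single hearts left out. Values by class of Y-linked mRNA and gene-by-gene library weights were chosen after seeing the data. One of the gene lists is not reported here.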

Additional observations from a re-analysis of the deposited data

How the results depend on the processing

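No paired analysis was possible because the labels give no replicate numbers that the groups share. With Y-linked mRNA as a covariate, 0 of the 5 markers passed in any comparison, and the genes called in all went from 41 to 20 at 12 h, from 10 to 1 at 24 h, from 63 to 6 at 72 h and from 1055 to 415 at 7 d against control, from 109 to 6 at 72 h and from 1651 to 243 at 7 d against 12 h, and from 1233 to 539 among 5 groups. With the run as a covariate the genes called were 772, 326, 495 and 1336 against control, 284 at 72 h against 12 h and 2000 among 5 groups, and 1 marker (Cfd) passed at 12 h and at 24 h. With both covariates the counts were 454, 185, 1, 163, 3 and 75, with 1 marker at 24 h and among 5 groups and 0 in the other calls. Fits of single pairs of groups gave 11, 47, 1, 16 (72 h against 12 h) and 741 (7 d against 12 h) genes, 1 marker at 24 h and 0 at 72 h against control or 12 h. Library weights gave 1355, 218, 3955, 3317, 4232, 5075 and 7731 genes, with 1 marker at 12 h and 24 h and 4 at 72 h against 12 h. Median-ratio scaling gave 96 genes at 72 h and 170 against 12 h, upper-quartile scaling 6 at 24 h. A minimum of 5 RPKM gave 23, 6 and 40 genes at 12 h, 24 h and 72 h and left 1 marker called at 72 h against control and 12 h and 2 among 5 groups, since fewer genes were tested; no minimum gave 16 genes at 24 h and 1 marker at 72 h. Leaving out single hearts gave 9 to 180 genes at 12 h, 1 to 28 at 24 h, 4 to 269 at 72 h, 529 to 1266 at 7 d, 18 to 325 and 823 to 2328 against 12 h, and 560 to 1871 among 5 groups, and markers called were 0 at 12 h, 0 to 1 at 24 h, 0 to 2 at 72 h, 1 to 3 at 7 d, 0 to 2 and 2 to 3 against 12 h, and 2 to 4 among 5 groups. Of the 10 correlated pairs, 2 also passed over deviations from group means, where p-values are too small, as did 2 others (4 in all). The count was 1 within run A and 0 within run B and within the hearts with or without Y-linked mRNA, where fewer hearts were used, and 8 without the 2 farthest hearts.

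Log2 changes and correlations that changed sign were these, and none of the original values had passed except for pairs with Retn. Car3 at 12 h went to -0.0049 with Y-linked mRNA and ranged from -0.13 to 0.28 without single hearts. Fabp4 at 12 h went to 0.092 and 0.085 with median-ratio and upper-quartile scaling and ranged from -0.069 to 0.025 without single hearts. At 72 h it went to -0.055 with quantile scaling and ranged from -0.083 to 0.10, against 12 h from -0.069 to 0.12, and at 7 d against 12 h it went to 0.019 with both covariates. With median-ratio, upper-quartile and quantile scaling, Cidea at 24 h went to 0.050, 0.034 and 0.026 and Cidec at 12 h to 0.019, 0.014 and 0.041. Adipoq at 7 d went to 0.19 with both covariates. Over deviations from group means, r of Cidea became 0.30 with Cfd, 0.39 with Car3, 0.44 with Adipoq, 0.65 with Cidec and 0.41 with Retn. Within run B it became 0.24 with Cfd and 0.15 with Cidec, without Y-linked mRNA 0.75 with Cfd, 0.25 with Car3 and 0.33 with Cidec, and with it 0.030 with Adipoq and 0.79 with Retn. Cfd with Fabp4 had 0.021 within run A, Cfd with Retn -0.064 without Y-linked mRNA, and Retn had -0.10 with both Car3 and Adipoq in hearts with it. The causes of these changes were not tested.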
